A study of Bos taurus with 12 samples.

Results

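The transcripts of 4 adipokines, adiponectin (ADIPOQ), leptin (LEP), retinol binding protein 4 (RBP4) and nicotinamide phosphoribosyltransferase (NAMPT), were followed in intramuscular and subcutaneous fat of cattle. They were read through every probe set of the Affymetrix bovine array annotated with exactly 1 of these gene symbols. This gave 6 of 24128 probe sets. ADIPOQ (Bt.8548.1.S1_at) and RBP4 (Bt.5318.1.S1_at) have 1 each, LEP has Bt.26617.1.A1_at and Bt.1939.1.S1_at, and NAMPT has Bt.1543.1.A1_at and Bt.27085.1.S1_at. All 6 were bright enough to be among the 16811 probe sets tested.

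Adipokines are proteins that fat tissue releases into the blood. Adiponectin is made almost only by adipocytes and raises insulin sensitivity in liver and muscle. Leptin is secreted by fat cells in proportion to their lipid content and signals energy stores to the hypothalamus. RBP4 carries retinol in plasma and is made by liver and adipocytes. NAMPT, also called visfatin when it is found outside cells, catalyses the rate-limiting step of the NAD salvage pathway and is expressed in many tissues, muscle among them.

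The animals were Japanese Black (JB) cattle, a beef breed known for marbled meat, and Holstein (HS) cattle, a dairy breed. All groups received energy-rich feed. Intramuscular fat (IMF), the marbling fat inside a muscle, was compared with subcutaneous fat (SCF), the fat under the skin. Each breed gave 3 IMF samples (1 to 3) and 3 SCF samples (4 to 6), so that 12 samples formed 4 groups of 3. Age and sex are not given in the labels used here, nor whether samples came from separate animals, so the p-values reflect only how far these samples scatter, part of which may be technical. The design text of the series names the comparison of the breeds within each depot and that of the depots over both breeds.

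Precision is limited by having 3 arrays in a group. The median signal of an array lay between 77.5 and 88.6 except in HS IMF 3, where it was 58.8, and the arrays were quantile normalized. The GAPDH control's ratio of 3' to 5' signal, a measure of RNA degradation, reached 4.06 in HS SCF 5 against 1.19 to 2.40 elsewhere. The mean correlation of a sample with its own group was 0.805 to 0.915 in HS and 0.944 to 0.962 in JB, while 1 estimate of spread was shared by all groups.

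The labelled tissues were checked against marker genes. The mean log2 signal of 16 measured adipocyte genes spanned 10.28 to 12.07 in IMF and 11.84 to 12.72 in SCF. Of these, FABP4, a fatty acid carrier of adipocytes, lay between 11591 and 15285 in IMF and between 15399.9 and 17308 in SCF. CIDEA of the same list was dimmer, at 175 to 1924 in IMF and 194 to 5259 in SCF. The IMF samples also carried strong signals of muscle fibres. Over 23 measured of 27 muscle fibre genes, the mean log2 signal of a sample spanned 11.77 to 12.83 in IMF, against 5.80 to 8.09 in SCF. In SCF it was highest in JB SCF 6 (8.09) and HS SCF 5 (8.05), with the others at or below 6.12. TNNT1, a slow-fibre troponin, spanned 0 to 181 in SCF. MYH7 of the same list lay at 1923 to 4408 in SCF and ACTA1 at 6.95 to 7292, so muscle fibre signals were not absent there. In this bulk tissue, fewer cells of a type and less RNA per cell cannot be told apart.

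**Figure D1:**
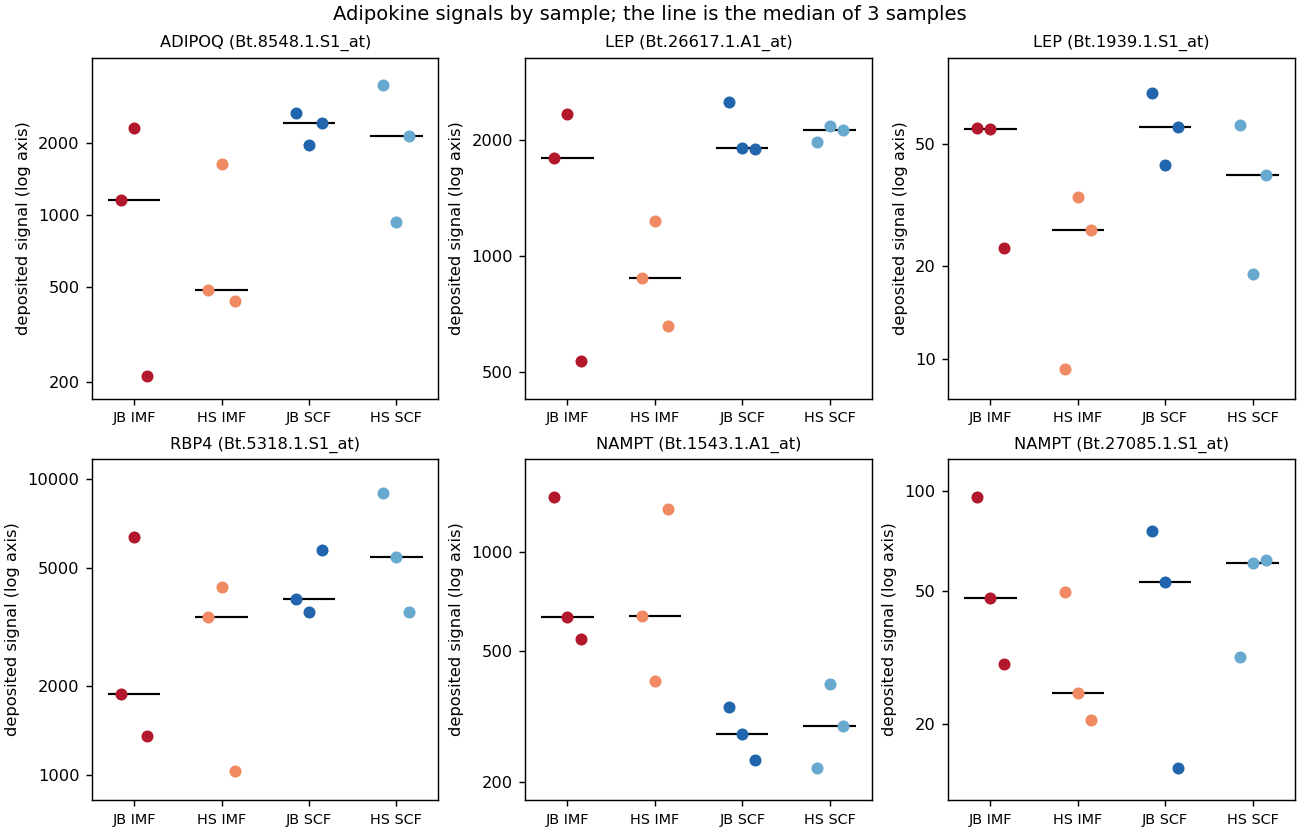
Deposited signal of each adipokine probe set in the 12 samples, on a log axis, by group of breed and depot; each point is 1 sample and each line the median of the 3 samples of a group. The brighter NAMPT probe set (Bt.1543.1.A1_at) lies between 406 and 1466 in IMF and between 221 and 397 in SCF, without overlap, while the other 5 probe sets overlap between the depots.

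The depots were compared over both breeds as IMF minus SCF. NAMPT was higher in IMF through its brighter probe set, 2.78-fold (95% interval 1.63 to 4.75). It was the only one of the 6 probe sets past the threshold of an adjusted p under 0.05. ADIPOQ, the brighter LEP probe set and RBP4 had lower means in IMF, by 0.77 to 1.27 on the log2 scale, but did not pass. Of the 16811 probe sets tested, 11.0% passed in this comparison, 4.66% higher and 6.33% lower in IMF. The 1 of 6 is near this background. The calls numbered 784 higher and 1064 lower, or 579 higher and 1318 lower without quantile normalization. The 6 differences had a median of −0.55, with 1 positive and 5 negative, against a median of −0.060 over all probe sets tested. Since 16 was added to each signal before log2 was taken, differences of dim probe sets are understated.

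ADIPOQ encodes the most abundant hormone of the adipocyte. Its deposited signal was 1152, 2303 and 214 in JB IMF 1 to 3 and 485, 1632 and 436 in HS IMF 1 to 3. In SCF it was 2678, 1959 and 2415 in JB SCF 4 to 6 and 3484.5, 936 and 2132 in HS SCF 4 to 6. Values were thus mostly high in SCF, but JB IMF 1, JB IMF 2 and HS IMF 2 lay above HS SCF 5, the sample with the highest GAPDH ratio, and the depots overlapped. The depot difference was −1.27 ± 0.55 (SE; 95% interval −2.46 to −0.084), with an adjusted p of 0.157 by limma with Benjamini-Hochberg adjustment. It was −1.43 ± 0.77 in JB and −1.11 ± 0.77 in HS, neither past the threshold (adjusted p = 0.475 and 0.414). Without JB IMF 3, the lowest sample, the difference over both breeds was −0.79 (adjusted p = 0.321). With each sample left out it ran from −2.19 (without JB IMF 2) to −0.47 (without JB IMF 3) in JB and from −1.66 (without HS SCF 5) to −0.62 (without HS SCF 4) in HS.

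ADIPOQ was also the most variable of the 6 within groups. The residual SD of its log2 signal was 1.13, higher than that of 98.0% of the probe sets tested, whose median was 0.411. The highest IMF signal was 10.8 times the lowest, and the highest SCF signal 3.72 times the lowest. Most of the spread lay in JB IMF, where the log2 SD was 1.75 (n = 3) against 0.25 in JB SCF (n = 3).

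LEP encodes leptin, read by a bright and a dim probe set. Through the bright one, Bt.26617.1.A1_at, the signal was 1793, 2343 and 534 in JB IMF 1 to 3 and 877, 1237 and 659 in HS IMF 1 to 3. In SCF it was 2509, 1902 and 1898 in JB SCF 4 to 6 and 1972, 2170.1 and 2127 in HS SCF 4 to 6. All 6 SCF samples were high and close together, and JB IMF 2 alone reached their level among the IMF samples. The depot difference was −0.77 ± 0.32 (SE; 95% interval −1.47 to −0.080), with an adjusted p of 0.141 by limma. In HS the 3 IMF samples lay below the 3 SCF samples without overlap, as in 20.5% of the tested probe sets (−0.91 ± 0.45, adjusted p = 0.263), and in JB the difference was −0.64 ± 0.45 (adjusted p = 0.639).

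The spread of this LEP probe set differed between the depots in these samples. In SCF the highest signal was 1.32 times the lowest and the log2 SD over 6 samples was 0.16. In IMF the highest was 4.39 times the lowest and the log2 SD was 0.78, which was not tested against that of SCF. Without JB IMF 2 the depot difference was −1.004 with an adjusted p of 0.0459, the only alternative of 21 under which it passed. Without JB IMF 3, the lowest sample, it was −0.44 with an adjusted p of 0.211, and the difference in JB was then 0.031.

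The second LEP probe set, Bt.1939.1.S1_at, was dim, with 96.8% of the tested probe sets brighter. Its signal was 56.3, 55.8 and 22.9 in JB IMF, 9.30, 33.6 and 26.2 in HS IMF, 72.9, 42.8 and 56.5 in JB SCF, and 57.6, 19.0 and 39.5 in HS SCF, each in the order of the sample numbers. The depots overlapped widely. The difference was −0.33 ± 0.26 (SE), of the same sign as that of the bright probe set, with an adjusted p of 0.450 by limma. The 2 LEP probe sets correlated at r = 0.728 over the 6 IMF samples and at −0.062 over the 6 SCF samples, a description of samples that share their groups.

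RBP4 encodes the plasma carrier of retinol. It was the brightest of the 6, with only 2.11% of the tested probe sets brighter. Its signal was 1875, 6345 and 1351 in JB IMF 1 to 3 and 3399, 4321 and 1027 in HS IMF 1 to 3. In SCF it was 3934, 3539 and 5738 in JB SCF 4 to 6 and 8957, 5459.7 and 3535 in HS SCF 4 to 6. JB IMF 1, JB IMF 3 and HS IMF 3 were low, HS IMF 1 lay just under the SCF range, and the other IMF samples lay within it. The depot difference was −0.83 ± 0.45 (SE; 95% interval −1.80 to 0.14), with an adjusted p of 0.258 by limma. It was −0.73 ± 0.63 in JB and −0.93 ± 0.63 in HS (adjusted p = 0.744 and 0.406). With each sample left out these ran from −1.46 (without JB IMF 2) to −0.26 (without JB IMF 3) in JB and from −1.37 (without HS SCF 6) to −0.45 (without HS IMF 3) in HS. Its residual SD of 0.908 exceeded that of 94.5% of the probe sets tested.

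NAMPT encodes the enzyme that turns nicotinamide into nicotinamide mononucleotide. Through Bt.1543.1.A1_at its signal was 1466, 635 and 542 in JB IMF 1 to 3 and 639, 406 and 1343 in HS IMF 1 to 3. In SCF it was 338, 279 and 233 in JB SCF 4 to 6 and 221, 397 and 296 in HS SCF 4 to 6. Every IMF sample lay above every SCF sample, though HS IMF 2 at 406 and HS SCF 5 at 397 were close. Such separation of the 6 from the 6 samples was seen in 6.24% of the tested probe sets. The depot difference was 1.48 ± 0.35 (SE; 95% interval 0.70 to 2.25), with an adjusted p of 0.0209 by limma with Benjamini-Hochberg adjustment.

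The difference was of similar size in both breeds, at 1.49 ± 0.50 in JB and 1.46 ± 0.50 in HS (SE). Neither alone passed (adjusted p = 0.176 and 0.130 by limma), where 3.07% of the probe sets tested passed in JB and 3.32% in HS. None of the other 5 probe sets passed within a breed. The difference between the breeds in this depot effect was 0.026 ± 0.71 (95% interval −1.52 to 1.57, adjusted p = 0.998), too wide to show that the effects are alike. In this interaction 0% of the probe sets tested passed by limma, and 359 were at an unadjusted p under 0.05. The 6 adipokine probe sets had adjusted p-values of 0.990 or more.

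The NAMPT call depended on single samples. It was lost without JB IMF 1 (difference 1.26, adjusted p = 0.0572), JB SCF 5 (1.47, 0.0523), JB SCF 6 (1.43, 0.0535) or HS SCF 6 (1.47, 0.0503). In the same order, 976, 1027, 1115 and 1064 of all probe sets tested passed in these fits, against 1848 with all samples. The NAMPT call held under the other 17 of 21 alternatives. Over all 21 the difference ran from 1.16 to 2.29. Without both HS IMF 3 and HS SCF 5, the samples that stood apart in quality, the difference was 1.25 with an adjusted p of 0.0255.

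The second NAMPT probe set, Bt.27085.1.S1_at, did not follow the first. It was dim, with 92.7% of the tested probe sets brighter. Its signal was 96.0, 47.8 and 30.3 in JB IMF, 49.7, 24.9 and 20.5 in HS IMF, 75.9, 53.3 and 14.8 in JB SCF, and 31.8, 61.1 and 62.1 in HS SCF. High and low samples occurred in both depots. The depot difference was −0.084 ± 0.30 (SE; 95% interval −0.74 to 0.57), with an adjusted p of 0.887 by limma. The higher NAMPT level in IMF therefore rests on 1 of its 2 probe sets.

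**Figure D2:**
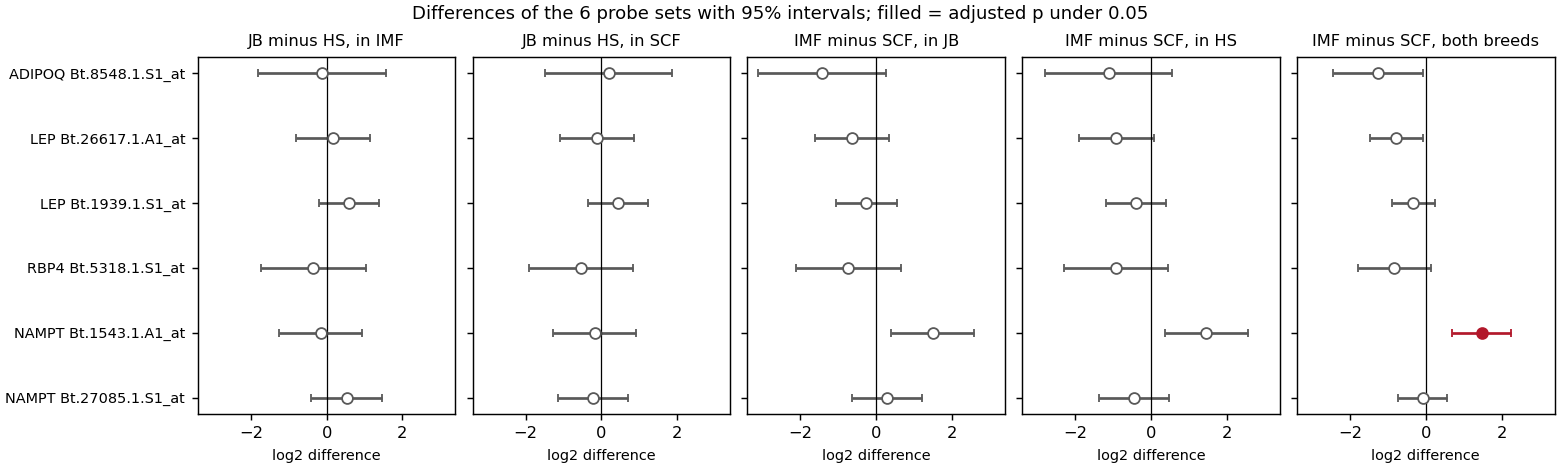
Log2 differences of the 6 probe sets with 95% intervals in 5 comparisons, from the linear model over 12 samples; filled points have an adjusted p under 0.05. The brighter NAMPT probe set over both breeds (1.48) is the only filled point, and the breed differences lie between −0.54 and 0.58.

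The breeds were compared within each depot as JB minus HS. None of the 6 probe sets differed past the threshold in IMF or in SCF. Of the 16811 probe sets tested, 0.0238% passed in IMF (4) and 0.00595% in SCF (1). At an unadjusted p under 0.05 there were 1720 and 599, none of them adipokine probe sets. In IMF the 6 differences ran from −0.35 for RBP4 to 0.58 for the dim LEP probe set, with adjusted p-values of 0.558 to 0.955 by limma. In SCF they ran from −0.54 for RBP4 to 0.44 for the dim LEP probe set, all with an adjusted p of 0.99966.

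The intervals of the breed differences were wide. In IMF the ADIPOQ difference was −0.13 (95% interval −1.81 to 1.55), that of the bright LEP probe set 0.17 (−0.82 to 1.15) and that of the brighter NAMPT probe set −0.16 (−1.25 to 0.93). For ADIPOQ the sign in IMF turned to 0.25 without quantile normalization, which moved the median over all probe sets in this comparison from 0.10 to 0.38. In SCF the ADIPOQ difference was 0.19 (−1.49 to 1.87), that of the bright LEP probe set −0.11 (−1.09 to 0.87) and that of NAMPT −0.18 (−1.27 to 0.91). For ADIPOQ the intervals in both depots hold a log2 difference of 1 in either direction.

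The groups were put in order by their mean levels. ADIPOQ was highest in JB SCF (mean log2 signal 11.07 ± 0.25, SD, n = 3), then HS SCF (10.88 ± 1.03), HS IMF (9.77 ± 0.94) and JB IMF (9.64 ± 1.75). The bright LEP probe set ran from HS SCF (11.02 ± 0.068) and JB SCF (10.91 ± 0.22) to JB IMF (10.27 ± 1.18) and HS IMF (10.10 ± 0.30). RBP4 ran from HS SCF (12.51 ± 0.87) and JB SCF (11.97 ± 0.49) to HS IMF (11.58 ± 0.83) and JB IMF (11.24 ± 1.27). For these genes both SCF groups stood above both IMF groups. The brighter NAMPT probe set had the opposite order, HS IMF (9.71 ± 1.12), JB IMF (9.55 ± 0.76), HS SCF (8.25 ± 0.31) and JB SCF (8.06 ± 0.21). Neighbouring groups differed by more than the larger of their SDs at 2 steps, between HS SCF and HS IMF for ADIPOQ and between JB IMF and HS SCF for NAMPT. In the dim probe sets of LEP and NAMPT no step did so, and their orders did not separate the depots.

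Other cell types moved with depot as well. Of the 16811 probe sets tested, 4.66% were higher and 6.33% lower in IMF. At an unadjusted p under 0.05 by limma there were 4570. All 23 muscle fibre genes had positive depot differences and 20 were higher in IMF, with a median of 6.61. Among them was ATP2A1, the calcium pump of fast fibres, at 621 to 1194 in IMF against 0.23 to 12.9 in SCF. All 16 measured of 20 adipocyte genes lay below 0 (median −0.89), and 1 passed, the glycerol channel AQP7 (−1.18 ± 0.33, adjusted p = 0.0416 by limma). That call held in 7 of 21 alternatives, and in 1 of the 12 that left out a sample. Of 11 measured of 15 macrophage and myeloid genes, 10 were lower in IMF, with a median of −2.16. C1QA, a complement component made by macrophages, had signals of 408 to 1673 in IMF against 2580.0 to 11447 in SCF. Of 13 stromal progenitor genes 1 was higher and 4 were lower, and of 9 endothelial and 5 erythroid genes 0 passed by limma, 2 and 0 of them at an unadjusted p under 0.05. The part of muscle fibres, macrophages and adipocyte content in the adipokine differences was not tested.

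**Figure D3:**
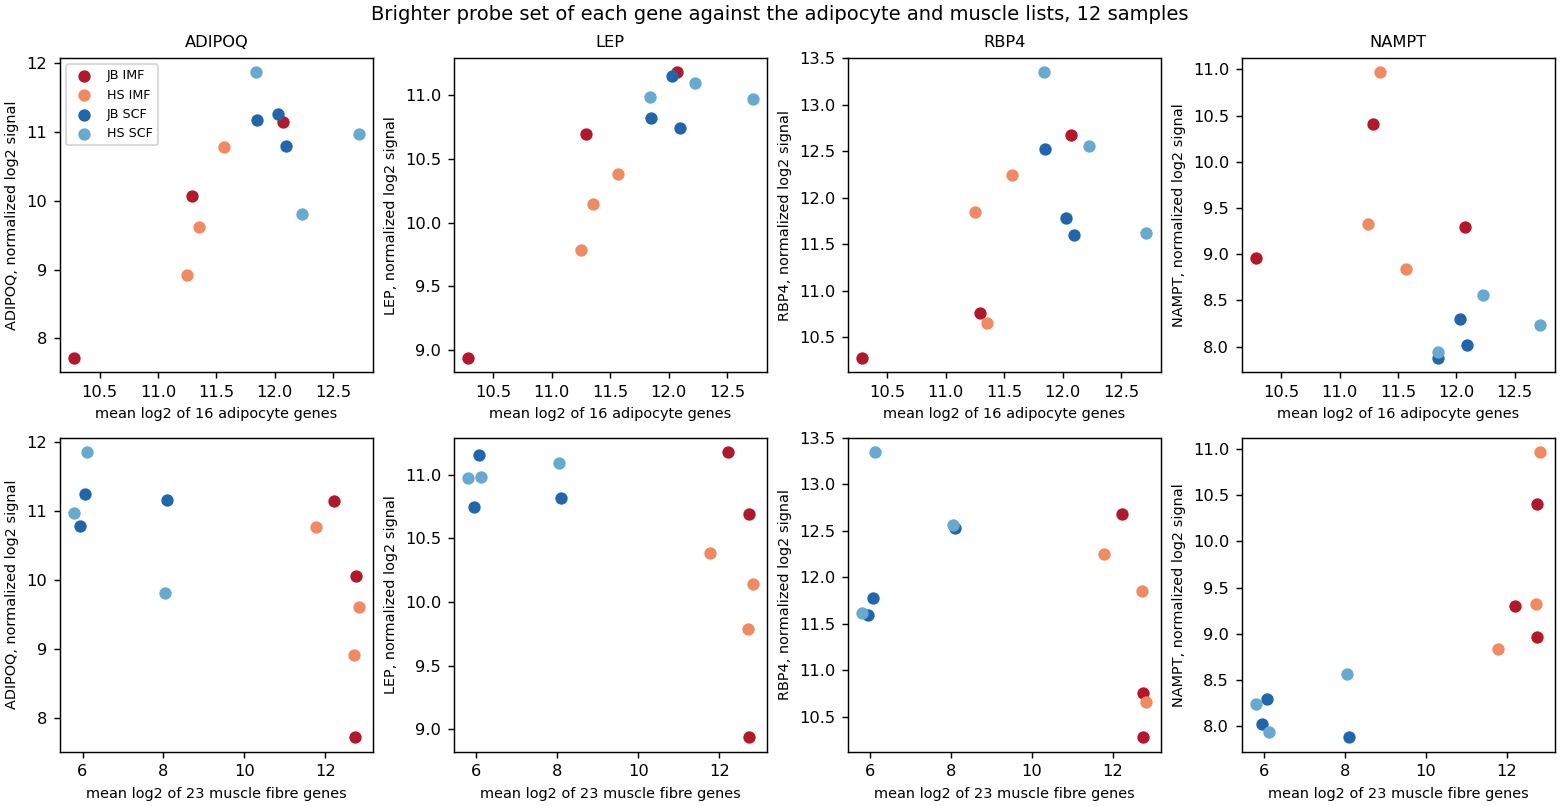
Normalized log2 signal of the brighter probe set of each adipokine against the mean log2 signal of 16 adipocyte genes (top) and 23 muscle fibre genes (bottom), with 1 point per sample. In IMF, ADIPOQ and LEP lie along the adipocyte mean, from JB IMF 3 at its lowest (10.28) to JB IMF 2 at its highest (12.07), and the depots form separate clusters on the muscle axis.

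Within IMF, ADIPOQ, the bright LEP probe set and RBP4 followed the adipocyte genes from sample to sample. The mean of the 16 adipocyte genes spanned 10.28 to 12.07 in IMF, against 11.84 to 12.72 in SCF. JB IMF 3 was lowest and also had the lowest ADIPOQ and bright LEP signals of all 12 samples. JB IMF 2 was highest in IMF and had the highest IMF signals of ADIPOQ, the bright LEP probe set and RBP4. Over the 6 IMF samples the correlation with the adipocyte mean was 0.939 for ADIPOQ, 0.929 for the bright LEP probe set and 0.805 for RBP4. Over the 6 SCF samples it was −0.407, 0.161 and −0.587. For the dim LEP probe set it was 0.471 in IMF and −0.491 in SCF. With the muscle fibre mean, ADIPOQ, the bright LEP probe set and RBP4 correlated at −0.673, −0.432 and −0.763 in IMF. In SCF these were −0.504, 0.0046 and 0.405. ADIPOQ and the bright LEP probe set correlated with each other at 0.948 in IMF and −0.130 in SCF. These are descriptions over samples that share depot and array, and the difference between the depots was not tested.

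For the brighter NAMPT probe set the correlation with the adipocyte mean was 0.114 over the 6 IMF samples and 0.521 over the 6 SCF samples. That with the muscle fibre mean was 0.599 in IMF and 0.159 in SCF. HS IMF 2 had the lowest muscle fibre mean in IMF (11.77) and the lowest IMF signal of NAMPT. In SCF the 2 samples with raised muscle fibre signals were at 233 (JB SCF 6, among the lowest) and 397 (HS SCF 5, the highest).

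When each array was centred on the adipocyte genes, in place of quantile normalization, depot differences were read relative to these genes. The median over all probe sets tested was then 0.77, against −0.060 with quantile normalization and −0.19 for the values as deposited. On the centred scale the differences of the bright LEP probe set and of RBP4 were near 0, at 0.025 and −0.0065, and that of ADIPOQ was −0.48. That of the brighter NAMPT probe set was 2.29 with an adjusted p of 0.000301 by limma, and of all calls 4351 were then higher and 88 lower in IMF.

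Genes that act with the adipokines were then read through lists whose members were chosen by function, with earlier results of these data known. Of 12 measured of 21 genes of adipokine receptors and signalling, 0 were higher and 3 lower in IMF. Of all probe sets tested, 4.66% were higher and 6.33% lower, and the median of the list was −0.46. LEPROT, a regulator of leptin receptor trafficking, had signals of 537 to 1528 in IMF against 1637 to 2474 in SCF, a difference of −0.90 ± 0.19 (SE; adjusted p = 0.0111 by limma). Its homologue LEPROTL1 differed by −0.75 ± 0.21 and CDH13, the T-cadherin that binds adiponectin on cell surfaces, by −0.67 ± 0.17 (adjusted p = 0.0364 and 0.0276). The LEPROT call held in 20 of 21 alternatives, that of LEPROTL1 in 11 and that of CDH13 in 12. With centring on the adipocyte genes the LEPROT difference was −0.11 and its call was lost. The adiponectin receptor ADIPOR2 did not pass at −0.91 ± 0.27 (adjusted p = 0.0522). The other adiponectin receptor, ADIPOR1, named after its value was seen, was at −0.039 (adjusted p = 0.895). LEPR is not analysed here.

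Retinoid genes, the partners of RBP4, were read next. Of 10 measured of 22 genes, 0 were higher and 2 lower in IMF, beside 11.0% of all probe sets tested, with a median of −0.11. They were ALDH1A1, which makes retinoic acid from retinal (2633 to 4766 in IMF against 5938 to 10070.4 in SCF, −0.83 ± 0.17, adjusted p = 0.00808 by limma), and RXRA, a nuclear receptor for retinoids (−0.81 ± 0.19, adjusted p = 0.0205), whose calls held in 20 and 17 of 21 alternatives. STRA6, the membrane receptor for RBP4, named after its value was seen, was at 0.17 (adjusted p = 0.723).

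The genes of NAD synthesis and use, the pathway of NAMPT, moved in both directions. Of 14 measured of 20 genes, 1 was higher and 2 lower in IMF, with a median of −0.065. These calls stand beside 4.66% higher and 6.33% lower of all probe sets tested. NMRK2, a nicotinamide riboside kinase of muscle, had signals of 626 to 2092 in IMF and was listed at or near 0 in every SCF sample (adjusted p = 2.28e-07 by limma). QPRT, which uses the tryptophan product quinolinate in a step towards NAD, had signals of 198 to 1329 in IMF against 1403 to 5125 in SCF (−2.35 ± 0.38, adjusted p = 0.00254). NADK, which phosphorylates NAD, differed by −1.10 ± 0.27 (adjusted p = 0.0214, a call that held in 17 of 21 alternatives), while another, dimmer probe set of it was at 0.47 (adjusted p = 0.470). NAPRT, the enzyme of the parallel route from nicotinic acid, did not pass at −0.64 ± 0.20 (adjusted p = 0.0563).

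Other adipokines were read through 20 measured of 40 genes. Of these 0 were higher and 6 lower in IMF, beside 4.66% higher and 6.33% lower of all probe sets tested, with a median of −0.64. IL6, an inflammatory cytokine, had signals of 13.6 to 148 in IMF against 94.0 to 1217 in SCF, a difference of −2.30 ± 0.29 (SE; adjusted p = 0.000400 by limma). In SCF its signal was 915 to 1217 in JB and 94.0 to 157 in HS. This breed difference in SCF was 2.79 ± 0.41 (SE) and did not pass (adjusted p = 0.155 by limma). The depot difference was −3.19 in JB and −1.42 in HS (adjusted p = 0.000953 and 0.0850 by limma). The breeds' depot effects differed by −1.77 ± 0.58 (SE), with an adjusted p of 0.990. CFD, the complement factor adipsin made by adipocytes, differed by −1.90 ± 0.37. ANGPTL2 and ANGPTL4, secreted angiopoietin-like proteins of which ANGPTL4 inhibits lipoprotein lipase, differed by −1.76 ± 0.33 and −1.68 ± 0.31. The 3 had adjusted p-values between 0.00557 and 0.00678. The macrophage genes given above were lower in the same IMF samples, and their part in these differences was not tested.

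Of 13 genes for the assembly and secretion of adiponectin, chaperones and oxidoreductases of the endoplasmic reticulum, 11 were measured. In the depot comparison 0 passed by limma and 2 were at an unadjusted p under 0.05, with a median of −0.18. At that unadjusted p there were 4570 of the 16811 probe sets tested. GSTK1, known as the adiponectin multimerization factor DsbA-L, was the list gene closest to passing at −0.74 ± 0.22 (adjusted p = 0.0510). Its 2 other probe sets were at −0.45 and 0.041. In the comparisons between breeds and in the interaction, 0 genes of these 5 lists passed by limma. At an unadjusted p under 0.05 the lists held 0 to 3 genes each in these comparisons. Over all probe sets tested there were 1720 between breeds in IMF, 599 in SCF and 359 in the interaction.

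**Figure D4:**
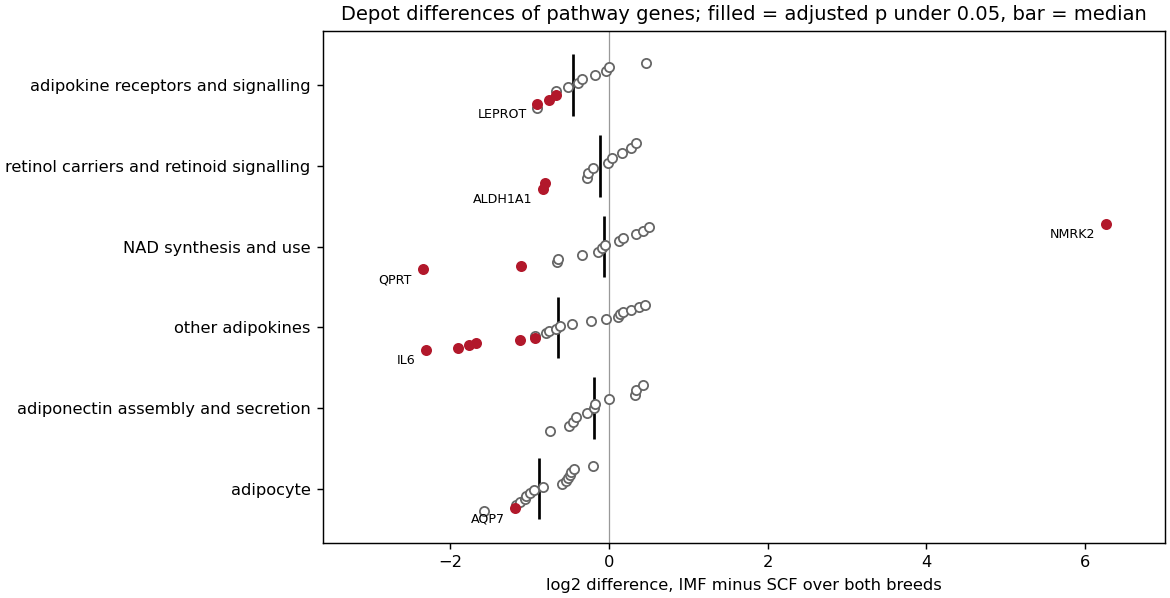
Depot differences (log2, IMF minus SCF over both breeds) of the measured genes of 6 lists, 1 point per gene, with filled points at an adjusted p under 0.05 and a bar at the median of each list. Calls lie to the left of 0 (lower in IMF) except for NMRK2, whose place at 6.26 depends on the constant added to signals listed at or near 0 in SCF.

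For each adipokine the 5 probe sets were named whose pattern over the 12 samples was most like that of its brighter probe set, by Pearson correlation. They share depot and arrays, so the correlations are descriptions. ADIPOQ was most like PPARG, the master regulator of adipocyte differentiation (r = 0.935, and 0.909 within IMF and 0.933 within SCF). SORD (0.921), the lipase gene LIPE (0.918), TNFSF8 (0.917) and SPG21 (0.912) followed. The bright LEP probe set was most like IDH1, the cytosolic isocitrate dehydrogenase that makes NADPH, through 2 probe sets (0.971 and 0.954). C18H19orf12 (0.956), ACADL (0.956) and ACSM1 (0.953), the last a medium-chain acyl-CoA synthetase, followed. For C18H19orf12 the correlation was 0.974 within IMF and 0.279 within SCF.

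RBP4 was most like RTN3, a reticulon of the endoplasmic reticulum (0.950, and 0.972 within IMF and 0.886 within SCF), and OS9, a lectin of endoplasmic reticulum quality control (0.950). EMILIN2 (0.931), URM1 (0.925) and SLC35B2 (0.914) followed. The brighter NAMPT probe set was most like TUBA4A, an alpha tubulin (0.951, and 0.917 within each depot), ART3 (0.937), ZFAND5 (0.935), LOC100300510 (0.930) and STAC3, a protein of excitation-contraction coupling in skeletal muscle (0.922). All 5 were higher in IMF, by 1.28 to 3.55, with adjusted p-values of 0.000689 to 0.0237 by limma. They were picked for likeness to a probe set that is itself higher in IMF, so this is not a separate result. For LOC100300510 the correlation was 0.876 within IMF and −0.114 within SCF, and for ART3 it was 0.874 and 0.351.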

How the data were processed

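Total RNA of 12 samples was labelled with biotin and hybridized to the Affymetrix bovine array, per the labels' protocols. The authors deposited linear intensities of 24128 probe sets, with 2303 zeros. They were made with Affymetrix Expression Console 1.1 and GCOS 1.1.1, per the submitters' processing notes. How probes were summarized and arrays scaled is not given in the sources used.

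The deposited intensities were turned into log2(signal + 16) and quantile normalized. The 112 control probe sets and the 30% dimmest of the other 24016 were left out, which left 16811. Gene symbols came from the platform annotation and were updated through the gene identifier, which matched for 13283 probe sets. The arrays were fitted with limma 3.58.1 in R 4.3.3 (lmFit, eBayes, 4 group means, 8 residual and 4.05 prior degrees of freedom). P-values were adjusted by Benjamini-Hochberg over all probe sets tested in a comparison, with a threshold of 0.05. The procedure was tested on simulated data with independent noise of equal spread in all groups, which does not cover groups of unequal spread.

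The members and gene lists were chosen with earlier results of these data known. List genes were read through their brightest probe set. Named were up to 4 genes of each pathway list and up to 3 of each marker list with the smallest p between depots, of which some are given, and the 5 probe sets most like each adipokine. FABP4, CIDEA, TNNT1, MYH7 and ACTA1 were named after their values were seen. Replicate numbers 1 to 3 and 4 to 6 recur in both breeds, and nothing in the labels says that they pair animals.

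Alternatives were a constant of 1, the values as deposited, median centring, centring on the adipocyte genes, no filter and 50% left out as dim, only the groups compared, array weights, a trended and robust variance, a replicate block and each sample left out in turn. Median centring and centring on the adipocyte genes took the place of quantile normalization. Removal of HS IMF 3 together with HS SCF 5 was added after the data were seen. Sequences and genome positions of the probe sets are not used here. Figures were drawn with matplotlib in Python.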

Additional observations from a re-analysis of the deposited data

How the results depend on the processing

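The call of the brighter NAMPT probe set between depots held in 17 of 21 alternatives. With each sample left out, 0 to 2 adipokine probe sets passed between depots over both breeds and 0 to 1 in JB. Within breeds, 1 probe set (NAMPT) passed in JB with centring on the adipocyte genes and with array weights (2.27 and 2.03), and 1 in HS with centring (2.31). Over all probe sets, 923 to 2338 passed between depots with a sample left out, 3154 with array weights and 4439 with that centring, against 1848. In JB 218 to 712 passed with a sample left out, 1038 in a fit of only the groups compared and 4340 with array weights, against 516. In HS these were 191 to 1117, 158 and 184, against 558. No breed difference of the 6 adipokine probe sets passed under any alternative run. The cause of the changes of sign below was not tested.

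Changes of sign were these. Without quantile normalization the breed differences in IMF were 0.25 for ADIPOQ, 0.030 for RBP4 and 0.17 for NAMPT. With median centring ADIPOQ was at 0.044. With centring on the adipocyte genes, breed differences were 0.11 for ADIPOQ and 0.034 for NAMPT in IMF and 0.15 for LEP and 0.070 for NAMPT in SCF. With that centring, depot differences were 0.025 for the bright and 0.57 for the dim LEP probe set and 0.83 for the second NAMPT probe set over both breeds. They were 0.16, 0.51 and 0.050 for the LEP probe sets and RBP4 in JB, 0.63 and 0.58 for the dim LEP and second NAMPT probe sets in HS, and the interaction of NAMPT was −0.036. Of the list genes, CDH13 (0.13), LEPROTL1 (0.022), ALDH1A1 (0.0081), NAPRT (0.13), GSTK1 (0.033) and PDGFRA (0.041) turned with it. LEPROT (−0.11) and RXRA (−0.029) kept their sign with that centring but did not pass. With array weights NAMPT was at 0.79 between breeds in IMF and its second probe set at 0.046 between depots. Without both HS IMF 3 and HS SCF 5 these were 0.47 and 0.032, and ADIPOQ was at −0.34 between breeds in SCF.

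With each sample left out, breed differences in IMF ran from −0.88 to 0.84 for ADIPOQ, −0.29 to 0.84 for LEP, −1.07 to 0.13 for RBP4 and −0.59 to 0.47 for NAMPT. In SCF they ran from −0.35 to 0.68 for ADIPOQ and −0.54 to 0.24 for the second NAMPT probe set. The depot difference of the latter ran from −0.31 to 0.078 over both breeds and −0.17 to 0.61 in JB. Those of the LEP probe sets in JB ran from −1.09 to 0.031 and −0.40 to 0.024, and the interaction of NAMPT from −0.41 to 0.65.

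The deviations from their group means of a JB and an HS sample with the same number correlated at −0.278 to 0.117. With a single sample per breed at each number, this cannot settle whether the numbers pair samples. With a replicate block, 0 adipokine probe sets passed between breeds or in the interaction by limma, as without it, and the breed difference of NAMPT in IMF was −0.16. No paired analysis was possible between depots because IMF and SCF share no numbers. Precision is limited by 3 arrays per group, and the dim LEP and NAMPT probe sets by their low signal.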
